A study of Bos taurus with 8 samples.

Results

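Annexins are cytosolic proteins that bind membranes rich in acidic phospholipids when calcium rises, through a conserved core of annexin repeats, while their N-terminal tails differ and bind different partners. In neutrophils and other phagocytes they take part in membrane repair, granule fusion, phagocytosis and the ending of inflammation. ANXA1 is known as a glucocorticoid-induced brake on neutrophil recruitment. The 8 annexin genes described here are ANXA1, ANXA2, ANXA3, ANXA4, ANXA5, ANXA6, ANXA7 and ANXA11. They were chosen by name from the 6758 genes that could be named on the array, of which 5004 were tested, and each had 1 probe. Probes of ANXA8L1 and ANXA9 were also on the array and are given only for comparison.

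RNA came from bovine blood granulocytes, a fraction made up mainly of neutrophils, and each sample was hybridised to its own single-colour oligonucleotide array. The same 4 cows were sampled on day 7 of the oestrous cycle, not pregnant and before embryo transfer, and on day 21 of a pregnancy obtained by embryo transfer. Ages and breeds of the cows are not given in the labels used here. Each cow went from the first state to the second, so pregnancy, transfer, day and time of sampling cannot be told apart. Levels below are on a log2 scale on which 0 is an array's own 75th percentile of background-subtracted signal. They set one probe against itself between arrays, and never one gene against another.

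The signal of 56.8% to 74.9% of the 15208 probes exceeded background clearly, and the 75th percentile ran from 516 to 1915 intensity units. The 4 slides did not hold the samples evenly. Cow 1 had both samples on slide 1 together with the earlier sample of cow 2, whose later sample was alone on slide 2. Cows 3 and 4 each had a slide of their own. On slide 1 all 3 arrays lay below the other 5 for 11.2% of probes and above them for 9.95%, so this slide stood apart; slide 1 and cow 1 largely coincide and cannot be told apart. All 7 neutrophil markers on the array, among them S100A8, ITGAM and CXCR1, were tested. So were all 7 monocyte, 7 T cell, 4 B cell and 5 NK cell markers on it, so being tested does not single out neutrophils. In a bulk fraction, fewer cells of a type and less RNA per cell cannot be told apart.

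The array read each annexin through 1 oligonucleotide of 60 bases. The first 30 bases of the probes for the annexins with the largest changes (ANXA5 and ANXA7), the largest difference between cows (ANXA1) and the smallest spread (ANXA3) are shown 5′ to 3′ as the scanner files give them, all in lower case because no part is singled out.
ANXA1: ctctgtggaagagactaaacattcctttga
ANXA3: atactacccacattgcatttctgctttgga
ANXA5: agtctggatcatttatattttcctgtaaga
ANXA7: attctcactgctcttattctaaataggaca
The longest run of bases shared by any pair of the 8 probes was 10, between ANXA2 and ANXA3, so the probes read different stretches although the proteins share their repeats. The GC content was 35.0% for ANXA5 and ANXA7, 38.3% for ANXA1, 40.0% for ANXA2 and ANXA3, and 51.7% for ANXA6, the highest of the 8.

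The study looked for transcripts of blood cells that respond around implantation, and here the annexins were compared between day 21 and day 7. All 8 annexins were well above background on all 8 arrays. None passed the test: limma called 0 of the 8 at an adjusted p under 0.05, as it called 0 of 10459 tested probes (0%). At an unadjusted p under 0.05 the count was 1 of 8 annexins, ANXA7, against 9.48% of all tested probes (4.92% higher and 4.55% lower). This fit did not pair the samples of a cow. With cow as a block the count was again 1 of 8, ANXA5 in place of ANXA7, against 19.0% of all tested probes. By sign 5 annexins had a higher mean on day 21 and 3 a lower one, where 55.0% of tested probes were higher and 45.0% lower. The median log2 change of the 8 was 0.21, beside 0.08 over the 5004 genes tested. The values of the 2 days overlapped for each of the 8, while 5.65% of tested probes did not overlap (3.01% higher and 2.64% lower). Direction was the same in all 4 cows for 4 of the 8, and for 29.8% of tested probes measured in every cow.

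**Figure D1:**
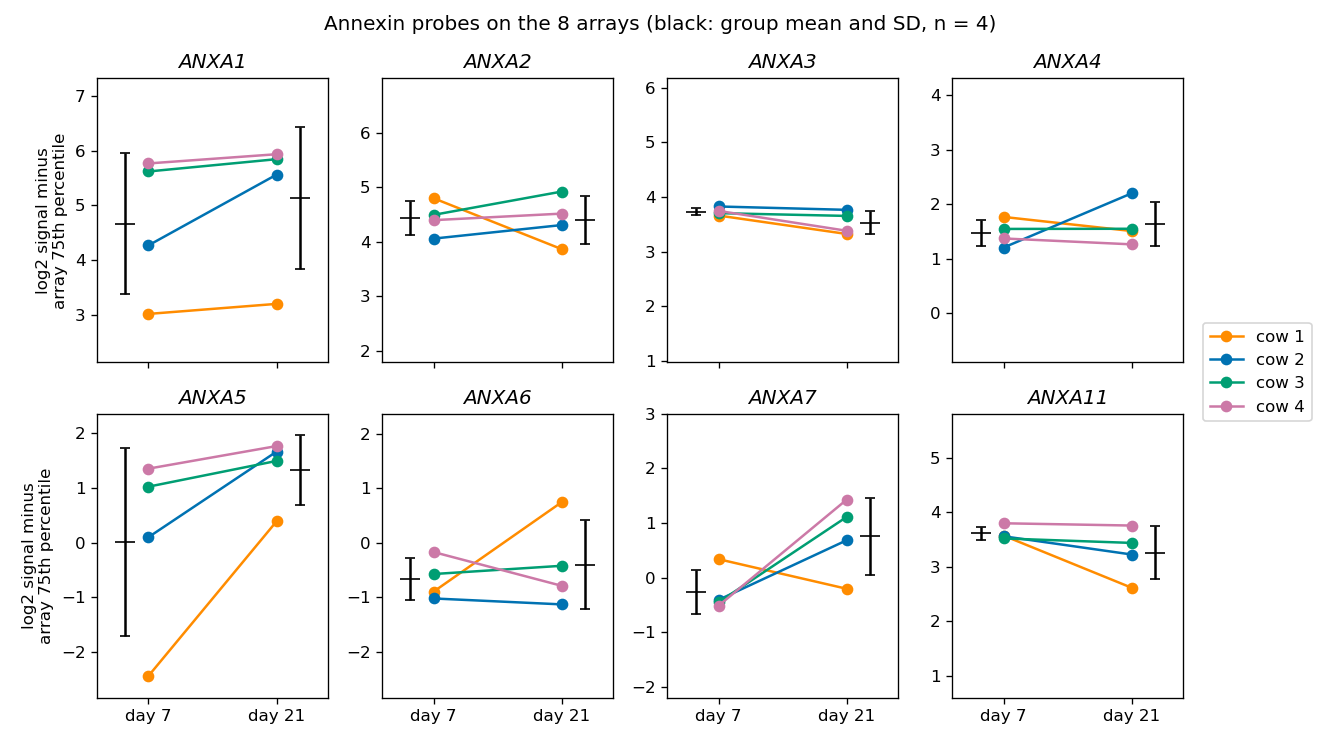
Normalised log2 signal of the 8 annexin probes (vertical axes, each spanning the same number of log2 units) on day 7 and day 21, with a line for each of 4 cows and the group mean and SD in black. ANXA7 was higher on day 21 in cows 2, 3 and 4 and lower in cow 1, and ANXA1 separated the cows more than the days.

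ANXA7 (synexin) binds calcium and fuses secretory vesicles, and it had the smallest p of the family. On day 7 its values were 0.34, -0.41, -0.45 and -0.51 in cows 1 to 4, and on day 21 they were -0.21, 0.69, 1.11 and 1.43. Cow 1 was the highest on day 7 and the lowest on day 21; in the other 3 cows each day 21 value was above each day 7 value. The means were -0.26 ± 0.40 and 0.76 ± 0.71 (SD, n = 4), which gave a log2 change of 1.01 ± 0.43 (SE), or 2.02-fold, with a 95% interval of 0.07 to 1.96. It did not pass the limma test over all probes (adjusted p = 0.509), and 3 of 4 cows showed its direction. With cow as a block, which uses that the same cows were sampled on both days, the standard error was 0.44 and the unadjusted p of limma was 0.0582 (adjusted p = 0.278), so ANXA7 was then not among the probes under 0.05.

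Within cows ANXA7 changed by -0.54, 1.09, 1.56 and 1.94 in cows 1 to 4. Without both arrays of cow 1 the log2 change was 1.53 ± 0.32, still short of the threshold (limma adjusted p = 0.0763). With array quality weights, which let arrays that fit the model better count for more, limma called ANXA7 higher (log2 change 1.61 ± 0.30, adjusted p = 0.0221), the only annexin so called. The same weighting called 5.75% of tested probes, 2.68% higher and 3.07% lower. Weights by REML over complete probes, a choice made after seeing the data, also called it (1.74 ± 0.26, limma adjusted p = 0.0042), where 16.2% of tested probes were called, 8.36% higher and 7.81% lower. The first weighting gave 0.357 and 0.361 to the arrays of cow 1 and 2.54 and 3.47 to those of cow 4, and REML gave 0.291 and 0.294 to cow 1 and 3.25 and 6.93 to cow 4. Yet the day 7 array of cow 4 had the fewest probes well above background (56.8%). The signal of its negative control spots had an SD of 24.8, against 2.58 to 5.32 on the other arrays. A large weight thus did not go with low background noise there. Over its 24 alternatives the adjusted p ran from 0.0042 to 1. The change was -0.17 within slide 1 and 0.98 ± 0.47 with slide as a fixed block (limma adjusted p = 0.472).

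ANXA5, the annexin used as a probe for phosphatidylserine on dying cells, had the largest mean change of the family. On day 7 it stood at -2.44, 0.10, 1.02 and 1.35 in cows 1 to 4, and on day 21 at 0.39, 1.67, 1.49 and 1.77. Each cow was higher on day 21, yet the days overlapped, because the cows differed widely on day 7. The day 7 array of cow 1 was far below the rest, at 121 intensity units before normalisation against 1153 to 4411 on the other 7 arrays. The means were 0.01 ± 1.72 on day 7 and 1.33 ± 0.64 on day 21 (SD, n = 4).

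The log2 change of ANXA5 was 1.32 ± 0.76, or 2.50-fold, with a 95% interval of -0.35 to 3.00 (limma adjusted p = 0.627). Within cows it was 2.83, 1.57, 0.47 and 0.41 in cows 1 to 4, so 4 of 4 cows were higher. Of tested probes measured in every cow, 15.5% were higher in all 4 cows. With cow as a block the standard error was 0.45 and ANXA5 still did not pass (limma adjusted p = 0.217). It was then the 1 annexin with an unadjusted p under 0.05, as 19.0% of tested probes had. Leaving out the day 7 array of cow 1 brought the change to 0.51 ± 0.47, leaving out both arrays of cow 1 to 0.82 ± 0.39, and leaving out the 3 arrays of slide 1 to 0.45 ± 0.30. The change was 1.56 within slide 1 and 0.89 ± 0.61 with slide as a fixed block.

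**Figure D2:**
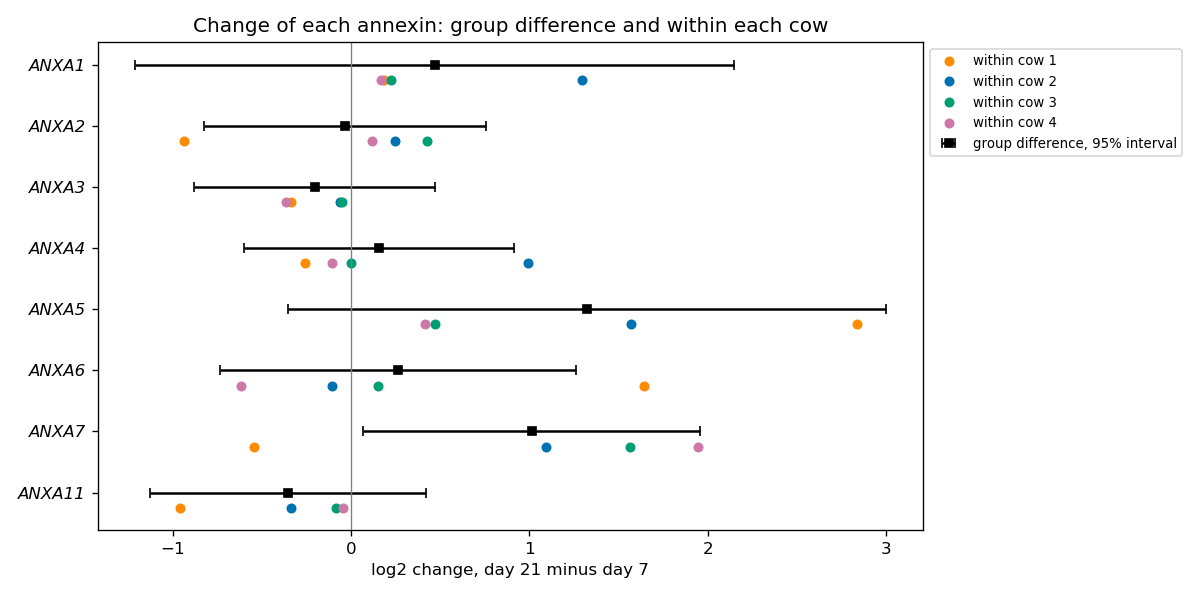
Log2 change from day 7 to day 21 (horizontal axis) of each annexin: black squares are the group difference with its 95% interval, n = 4 arrays a group, and coloured points the difference within each of 4 cows. The intervals are from the fit that does not pair the samples of a cow. Those of all annexins but ANXA7 include 0, before any adjustment for the number of probes. With cow as a block the unadjusted p of limma was 0.025 for ANXA5 and 0.0582 for ANXA7. Cow 1 gives the difference farthest from 0 for ANXA2, ANXA5, ANXA6 and ANXA11.

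ANXA1 (lipocortin 1), whose N-terminal peptide acts on formyl peptide receptors to restrain neutrophil adhesion, differed far more between cows than between days. On day 7 its values were 3.01, 4.27, 5.62 and 5.77 in cows 1 to 4, and on day 21 they were 3.20, 5.56, 5.85 and 5.94. Both arrays of cow 1 were the lowest of their day, and cows 3 and 4 were the highest on both. The mean was 4.67 ± 1.29 on day 7 and 5.14 ± 1.30 on day 21 (SD, n = 4). Its log2 change was 0.47 ± 0.76, with a 95% interval of -1.21 to 2.15 (limma adjusted p = 0.875).

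ANXA1 was higher on day 21 in 4 of 4 cows, with 1.30 for cow 2 and 0.17 to 0.23 for the rest. Cow 2 was also the cow whose arrays lay on different slides. With cow as a block the standard error of ANXA1 was 0.30 in place of 0.76, and the adjusted p was 0.427 with limma. The change was -0.44 within slide 1, where day 21 of cow 1 is set against day 7 of cows 1 and 2. A fixed block for slide gave -0.06 ± 0.39, and dropping cow 1 on day 7 alone gave -0.08 ± 0.72. The sign of ANXA1 turned in these 2 fits, which set unequal sets of cows against each other. Leaving out both arrays of 1 cow gave 0.19 to 0.57, and ANXA1 was not called in any of these fits. With slide as a random block the change of ANXA1 was 0.13 ± 0.50. That fit called 0 annexins and 0.115% of tested probes (0.0191% higher, 0.0956% lower).

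The 3 arrays of slide 1 were below the other 5 arrays for ANXA1 (3.01 to 4.27 against 5.56 to 5.94) and for ANXA5 (-2.44 to 0.39 against 1.02 to 1.77). For none of the other 6 annexins did they all lie on one side. Of tested probes measured on every array, 11.2% lay below in this way.

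The spread of each annexin over the 8 arrays was split into a part between cows, a part between days and the rest, as a description. Cow took 91.5% of the sum of squares of ANXA1 and day 4.2%. For ANXA5 cow took 59.9% and day 25.8%. ANXA7 had 4.8% for cow, 50.8% for day and 44.4% for the rest. A split among 4 cows can take up more spread than one between 2 days, so the shares of cow and day are not alike. Cow also partly coincides with slide. Over the tested probes the median was 56.8% for cow and 11.4% for day. ANXA3, at 35.5% for day, and ANXA11, at 25.2%, also had day shares above that median, while ANXA2 had 0.3%.

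**Figure D3:**
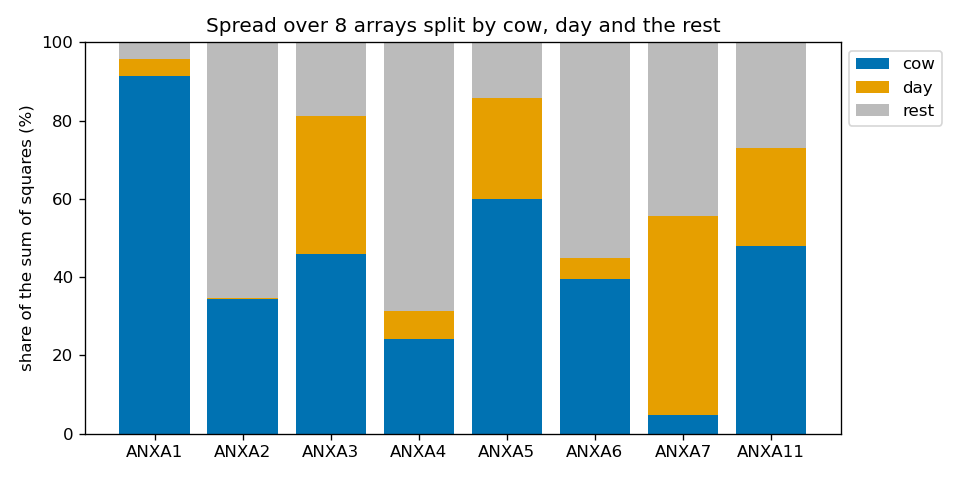
Share of the sum of squares over 8 arrays (vertical axis, percent) of each annexin that lies between cows, between the 2 days, and in the rest. Cow holds 91.5% for ANXA1 and 4.8% for ANXA7, and day holds 50.8% for ANXA7 and 0.3% for ANXA2.

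ANXA3, an annexin abundant in neutrophils and associated with their granules, was the steadiest of the family. It stood at 3.66, 3.83, 3.71 and 3.75 on day 7 in cows 1 to 4, and at 3.32, 3.77, 3.65 and 3.38 on day 21. All 4 cows were slightly lower on day 21, by 0.05 to 0.36, as were 14.3% of tested probes. The means were 3.74 ± 0.07 and 3.53 ± 0.21 (SD, n = 4), and the log2 change was -0.20 ± 0.30 (limma adjusted p = 0.867), with a 95% interval of -0.88 to 0.47. limma draws small variances towards those of all probes, so this standard error is wider than the spread of ANXA3 alone would give.

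ANXA11, which binds the calcium sensor ALG-2 and tethers RNA granules to lysosomes, was also lower in 4 of 4 cows. Its day 7 values were 3.57, 3.56, 3.52 and 3.80 in cows 1 to 4, and its day 21 values were 2.62, 3.23, 3.44 and 3.76. The differences were -0.96, -0.33, -0.08 and -0.04, largest in cow 1 and near 0 in cows 3 and 4. Its log2 change was -0.35 ± 0.35 (limma adjusted p = 0.781), with a 95% interval of -1.13 to 0.42. Without both arrays of cow 1 it was -0.15 ± 0.30.

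Neutrophil markers were lowest in cows 1 and 2 on day 21, the cows in which ANXA11 differed most. Their summed signal, relative to the 75th percentile of each array, was 101 to 132 on the 4 arrays of day 7. On day 21 it was 56.7 in cow 1, 65.0 in cow 2, 126 in cow 3 and 107 in cow 4. All 7 markers had a lower mean on day 21, with a median log2 change of -0.54, where 45.0% of tested probes were lower. This was not uniform, as the median difference of the 7 was -1.64, -1.20, 0.08 and 0.03 in cows 1 to 4. Lower in all 4 cows were 2 of the 7 markers, beside 14.3% of tested probes measured in every cow. None was called with limma, and 1 of the 7, PGLYRP1, had an unadjusted p under 0.05, beside 9.48% of tested probes. The difference of CXCR1 was -8.44 for cow 1, against 1.38 to 1.53 for the rest. The part of these markers in the values of ANXA11 was not tested.

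ANXA2 forms a tetramer with S100A10 and binds plasminogen and its activators at the cell surface. On day 7 it stood at 4.80, 4.06, 4.49 and 4.40 in cows 1 to 4, and on day 21 at 3.86, 4.31, 4.92 and 4.52. Cow 1 was lower by 0.93 and the other cows were higher by 0.12 to 0.43. The change was -0.03 ± 0.36 on the log2 scale (limma adjusted p = 0.985), with a 95% interval of -0.82 to 0.75, and without both arrays of cow 1 it was 0.27 ± 0.32.

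ANXA4, which binds vesicle membranes in secretory cells, had day 7 values of 1.77, 1.21, 1.55 and 1.37 in cows 1 to 4 and day 21 values of 1.51, 2.20, 1.55 and 1.26. Cow 2 was higher by 0.99, and the other cows differed by -0.26 to 0.00. The change was 0.16 ± 0.34 on the log2 scale, with a 95% interval of -0.60 to 0.92 (limma adjusted p = 0.906). Without both arrays of cow 2, which lay on different slides, it was -0.12 ± 0.37. A fixed block for slide gave -0.02 ± 0.30.

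ANXA6, which has a doubled annexin core and acts in endosome traffic and cholesterol transport, had day 7 values of -0.89, -1.02, -0.57 and -0.17. On day 21 they were 0.75, -1.13, -0.42 and -0.79 in cows 1 to 4. The day 21 array of cow 1 was the highest of the 8, and the other 7 lay between -1.13 and -0.17. Its log2 change was 0.27 ± 0.45, with a 95% interval of -0.73 to 1.26 (limma adjusted p = 0.881), with 2 cows higher and 2 lower. Without both arrays of cow 1 it was -0.19 ± 0.36.

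ANXA8L1, listed on the array as annexin A8, had a log2 change of 0.45 ± 0.42 and ANXA9 one of -0.69 ± 0.66. ANXA9 exceeded background clearly in 2 cows on day 7 and 3 on day 21. Neither was called with limma (adjusted p = 0.767 and 0.772).

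**Figure D4:**
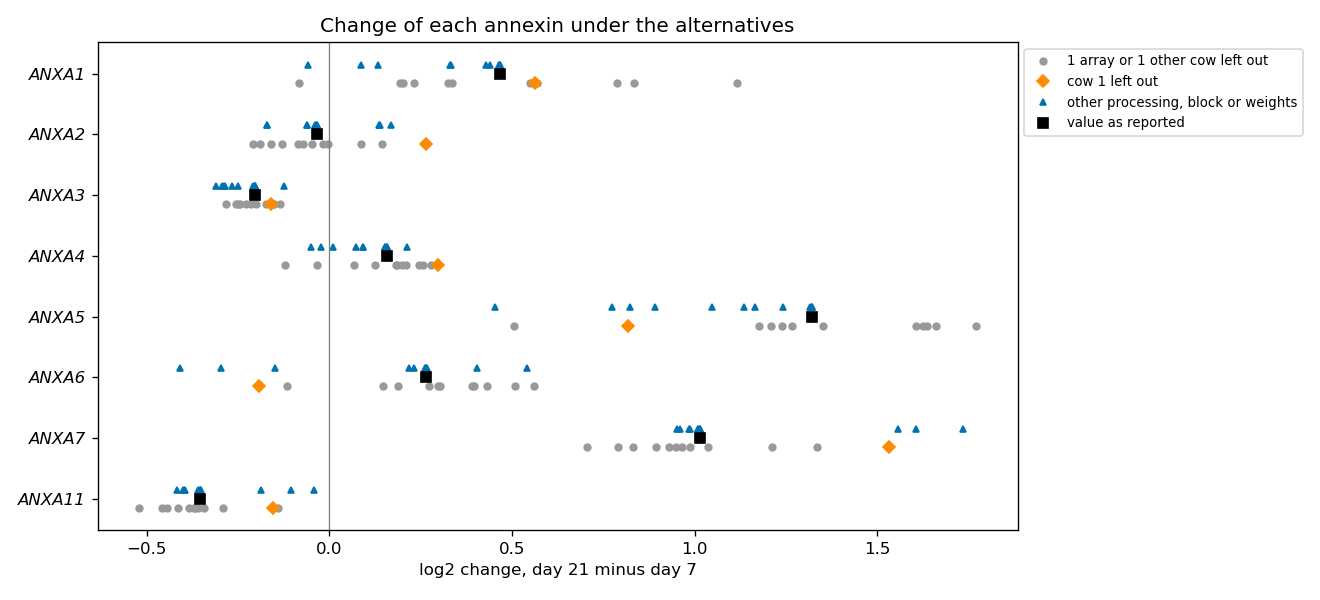
Log2 change from day 7 to day 21 (horizontal axis) of each annexin as reported (black) and under 24 alternatives: leaving out 1 array or 1 cow (grey, with cow 1 in orange) and other processing, blocks, weights or a slide left out (blue). ANXA5 and ANXA7 stay above 0 and ANXA3 and ANXA11 below 0 in all 24, while the signs of ANXA1, ANXA2, ANXA4 and ANXA6 turn in at least 1.

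Partners of the annexins were taken from a list of 46 genes by their known roles, of which 26 were on the array by name and 22 were tested. With limma 0 of 22 were called, beside 0% of tested probes. Their means were higher for 13 and lower for 9, around a median of 0.07, beside 0.08 for all genes. An unadjusted p under 0.05 was found for 0 of the 22, beside 9.48% of tested probes. Direction was the same in all 4 cows for 2 of the 22, and for 29.8% of tested probes measured in every cow. The formyl peptide receptors FPR1 and FPR2 were not among the probes named here, and S100A6 was not either.

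Of the S100 proteins that pair with annexins, S100A10, the partner of ANXA2, had values of -0.95, 0.19, 3.03 and 1.27 on day 7 and -0.55, -0.06, 2.76 and 1.29 on day 21 in cows 1 to 4. Like ANXA1 it parted the cows and not the days, with cow 3 the highest and cow 1 the lowest on both days. Its log2 change was -0.02 ± 0.91. For S100A11, a partner of ANXA1, cow 2, whose arrays lay on different slides, gave -1.43 and cows 3 and 4 gave 0.06 and 0.05. Its log2 change was -0.45 ± 0.43. S100A4 had one of -0.07 ± 0.46. None of these was called with limma (adjusted p = 0.766 to 0.997).

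Among the plasminogen activation genes, PLAUR, the urokinase receptor, stood at 0.63, 1.69, 1.68 and 1.15 on day 7 and 0.50, 2.52, 5.71 and 4.75 on day 21 in cows 1 to 4. Cows 3 and 4 were higher by 4.03 and 3.60 and cow 1 was lower by 0.13. Its log2 change was 2.08 ± 0.95 (limma adjusted p = 0.534), the largest of the 22 partners. PLAU, its ligand urokinase, had a log2 change of 0.23 ± 0.70 from 3 arrays a day, outlier spots left out.

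In eicosanoid synthesis, which ANXA1 is known to restrain through phospholipase A2, LTA4H is the enzyme that makes leukotriene B4. LTA4H was lower in 4 of 4 cows, by 0.32 to 1.33, as were 14.3% of tested probes measured in every cow. Its day 7 values were 2.68, 2.78, 1.74 and 1.91 and its day 21 values 1.36, 1.88, 0.93 and 1.59 in cows 1 to 4. Its log2 change was -0.84 ± 0.39 (limma adjusted p = 0.539). PTGS2, the inducible cyclooxygenase, had one of 1.10 ± 0.75 (limma adjusted p = 0.673), with 3.40 in cow 1 and 1.62 in cow 2 against -0.35 and -0.28 in cows 3 and 4. PLA2G4A, the cytosolic phospholipase A2, exceeded background clearly on 1 array and was not tested. The glucocorticoid receptor NR3C1 had probes that went opposite ways, at 0.46 ± 0.63 and -0.40 ± 0.53. Its target TSC22D3 had a log2 change of 0.11 ± 0.46. CAPN1, a calcium-dependent protease, had one of -0.62 ± 0.41 (limma adjusted p = 0.663) and was measured in 3 of the 4 cows on day 21, the outlier spot of cow 2 left out.

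Monocyte markers had a larger summed signal on day 21. It was 6.58 to 9.57 on day 7 and 10.5 to 17.8 on day 21, with no overlap of this sum. Singly, 2 of the 7 markers did not overlap, where 5.65% of tested probes did not. The mean was higher for 6 of 7 markers, where 55.0% of tested probes were higher. None of the 7 was called with limma. Beside 9.48% of tested probes, 2 of the 7 had an unadjusted p under 0.05. These were CD14, with a log2 change of 1.59 ± 0.45 (limma adjusted p = 0.392), and VCAN, with 0.85 ± 0.34, where a dimmer probe of VCAN gave -0.07. The difference of CD14 was 0.04 in cow 1 and 1.32, 2.29 and 2.71 in cows 2, 3 and 4. The median difference of the 7 markers was 0.48, 0.75, 0.78 and 0.56 in cows 1 to 4, and the difference of MRC1 was 2.37, 0.75, 0.32 and 0.33. The part of monocytes in the change of ANXA7 was not tested. T cell markers, 4 of 7 lower beside 45.0% of tested probes, had a summed signal of 6.72 to 14.9 on day 7 and 9.23 to 13.3 on day 21. The 2 platelet markers on the array, ITGA2B and P2RY12, summed to 1.57 to 4.88 on day 7 and 1.68 to 5.89 on day 21, mostly from ITGA2B. P2RY12 alone had a log2 change of -2.46 ± 0.45 (limma adjusted p = 0.285). It was lower in 4 of 4 cows, as were 14.3% of tested probes measured in every cow.

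The genes whose values over the 8 arrays were most like each annexin were taken from 4912 other named genes by Pearson correlation, as a description. For ANXA1 they were ZFP36L2 (r = 0.994), STK19 (0.993) and MPO (0.989), and 128 genes had r above 0.9. For ANXA5 they were AGFG1 (0.991), TOB1 (0.987) and SERINC2 (0.977), with 121 genes above 0.9. ANXA1 and ANXA5 correlated with each other at 0.848, and both follow the split of slide 1 from the rest. Over the differences within the 4 cows their correlation was 0.134. For ANXA7 they were SOCS4 (0.991), FGB (0.960) and SLC15A1 (0.954).

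ANXA11 was most like the cathelicidins CATHL4 (0.975) and CATHL1 (0.955), precursors of antimicrobial peptides, and PTPN5 (0.954). ANXA3 was most like CYBB (0.923), the core of the NADPH oxidase, CAMP (0.911) and MAEL (0.908). For ANXA2 the closest were KRT14 (0.943), KHDRBS1 (0.935) and RPLP2 (0.929), for ANXA4 CCDC175 (0.977), MT3 (0.953) and PRICKLE3 (0.947), and for ANXA6 TCF4 (0.948), LY6G6F (0.903) and STK25 (0.888). Genes with r above 0.9 numbered 31 for ANXA7, 13 for ANXA11, 8 for ANXA4, 7 for ANXA2, 4 for ANXA3 and 2 for ANXA6. The genes named are the highest of 4912 values for each annexin, and how many would arise by chance was not tested. The 8 arrays come from 4 cows and share slides, so such values are not those of independent samples.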

How the data were processed

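Granulocyte RNA was measured in 8 samples, 4 per day, on single-colour (Cy3) arrays. Per the file headers, the authors' scanner output gives a spot intensity that was background-subtracted and detrended within each array; the submitters' processing notes name Agilent Feature Extraction 9.5. The deposited series table holds log2 values: each column is the log of the processed signal less one number per array, within 0.00485, and this number differed from that array's 75th percentile by -0.0162 to -0.00711. Its column medians are -3.53 to -3.29, and its direction is that of the scanner values.

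Here log2 of the processed signal was centred on each array's 75th percentile, without the 536 control spots and without outlier-flagged spots (0 to 129 per array). Saturated spots numbered 0. Probes well above background on at least 4 arrays were tested, 10459 of 15208. Symbols came from the accession (2514 probes), gene identifier (2017), gene name (1559) or description (1001), matched to RefSeq genes (ARS-UCD2.0), and 8117 probes stayed unnamed. A gene is its probe of highest mean. The genome build of the array was not given in the sources used here, so no coordinates are printed.

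Days were compared with limma 3.58.1 in R 4.3.3 (lmFit, eBayes, no block), with Benjamini-Hochberg adjustment over all tested probes and a threshold of 0.05. The fit was tested on simulated data. Errors are standard errors of this fit unless SD is written. It does not use that the same cows were sampled on both days, so its errors, intervals and p are unpaired. With cow as a block the median standard error was 0.318, against 0.454. The standard errors of ANXA2, ANXA3, ANXA4, ANXA6 and ANXA11 were then 0.24 to 0.40, with limma adjusted p of 0.507 to 0.962. Exact sign-flip tests over 4 cows cannot go below p = 0.125 and were not used. The rule for named genes was all annexins, the S100 partners and formyl peptide receptors, the 4 other partners of smallest p and the 3 genes most like each annexin; other genes were named after their values were seen. Alternatives were other background corrections, normalisations and filters, cow or slide as a block, array quality weights, and leaving out each array or cow. Members, lists and tests were chosen with earlier results of these data known.

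Same-numbered samples are the same cow by their source names, which pairs them. Their deviations from the group means correlated at 0.173 to 0.754, those of different cows at -0.478 to 0.306. Cows 1, 3 and 4 each had both arrays on 1 slide and gave 0.437 to 0.754. Cow 2, on different slides, gave 0.173, below the 0.306 of its day 7 array with the day 21 array of cow 1 on the same slide. Cow and slide cannot be told apart in these values, so they do not check the pairing.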

Additional observations from a re-analysis of the deposited data

Results flagged for a closer look

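For ANXA1 the day 21 array of cow 1, at 3.20, lay far from the other 3 arrays of that day. For ANXA7 the day 7 array of cow 1, at 0.337, lay far above the other 3 of its day. In each case the gap to the nearest array exceeded 0.829 of the whole range of the group. Chance flags about 5% of such groups, and 16 groups of 4 arrays were looked at here. Both arrays are on slide 1.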

How the results depend on the processing

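Of 192 alternative values of the 8 annexins, 173 kept direction and side of the threshold, 17 turned sign and 2 passed the threshold. Turned signs were, for ANXA1, -0.0592 under a fixed slide block and -0.0831 when cow 1 was dropped on day 7, and for ANXA4 -0.0229 under a fixed slide block, -0.0501 with weights by REML, -0.03 without the day 21 array and -0.12 without both arrays of cow 2. ANXA2 turned to 0.17 with array weights, 0.14 with weights by REML, 0.14 without slide 1, and 0.09, 0.14 and 0.27 without the day 7, the day 21 or both arrays of cow 1. ANXA6 turned to -0.15, -0.30 and -0.41 under array weights, weights by REML and without slide 1, and to -0.12 and -0.19 without the day 21 or both arrays of cow 1. Leaving out arrays or cows gave -0.21 to 0.27 for ANXA2, -0.12 to 0.30 for ANXA4, -0.19 to 0.56 for ANXA6 and -0.08 to 1.12 for ANXA1 (lowest -0.0831); the cause was not tested.

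Weights by REML and the fit without slide 1 were chosen after seeing the data. ANXA7 was called with array weights (1.61, limma adjusted p = 0.0221) and with weights by REML (1.74, 0.0042), 1 annexin of 8 in each. Over all probes limma called 280 higher and 321 lower with array weights, 874 and 817 with weights by REML, and 2 and 10 with slide as a random block. Leaving out 1 array or 1 cow gave 0 to 16 higher and 0 to 35 lower calls, all of them without the day 21 array of cow 1 (13 and 35) or without cow 1 (16 and 22). With cow as the replicate block limma called 0 probes and 0 annexins, and 1991 probes (19.0%) had an unadjusted p under 0.05, among them ANXA5. The partner median ran from -0.00993 without cow 4 to 0.0849 without cow 1. Without the filter on dim probes the median change of all probes was -0.125, against 0.0736, a shift of over 0.1 that left the log2 changes of the annexins as they were. Each annexin had 1 probe, so no other probe could be tried. The 4 arrays a group limit precision: the median standard error was 0.454.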
